A study of Mus musculus with 6 samples.

Results

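The SERCA pumps, their small regulators and the calcium-binding proteins of the muscle fibre were followed as a set of 10 genes (*Atp2a1*, *Atp2a2*, *Sln*, *Pln*, *Casq1*, *Casq2*, *Pvalb*, *Srl*, *Hrc* and *Asph*), chosen by symbol from the 37979 genes of the deposited table. RNA-seq was done on the gastrocnemius (GAS), a muscle of the hindlimb, from 3 WT mice and from 3 mice without Kvβ2 (KO), with 1 library per mouse and the replicate numbers 1, 7 and 8 in both genotypes. The mice were untreated males of 20 weeks. The KO animals lack Kvβ2, the β-subunit of voltage-gated potassium channels, in every tissue, and the WT animals came from the same breeding of Kvβ2+/- null mice. The comparison asks how the loss of Kvβ2 goes with the transcripts that take calcium out of the cytosol and hold it. Values are FPKM, fragments per kilobase of transcript scaled by the number of mapped fragments, so that levels of different genes are compared per length. RNA came from whole muscle, in which fewer cells of a type and less RNA per cell cannot be told apart.

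After each contraction, the SERCA pumps use ATP to return calcium from the cytosol to the sarcoplasmic reticulum, and the fibre relaxes. In striated muscle, SERCA1 (*Atp2a1*) is the pump of fast fibres and SERCA2 (*Atp2a2*) that of slow fibres and of the heart. Sarcolipin and phospholamban are short membrane proteins that slow the pump, calsequestrin stores calcium inside the reticulum, and parvalbumin binds it in the cytosol of fast fibres.

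The targeted gene *Kcnab2*, which encodes Kvβ2, was low throughout, with 0.233, 0.10 and 0.110 FPKM (WT 1, 7 and 8) beside 0, 0.0151 and 0 FPKM (KO 1, 7 and 8). By the estimated depth and the mean annotated transcript length, these values rest on about 6.22, 2.69 and 3.05 fragments in WT and 0, 0.386 and 0 in KO. The 14 annotated transcripts run from 311 to 3922 bases, so the estimates are rough, and 0.386 is less than 1 whole fragment. The gene was below the mean of 0.5 FPKM required for testing. From the steps of low FPKM values, the KO libraries were estimated to hold 15000000 to 19480000 fragments and the WT libraries 20370000 to 21150000, so each KO library was the shallower. WT replicate 8 stood apart in its fibre markers. The 8 slow fibre markers (*Myh7*, *Myl2*, *Myl3*, *Tnnt1*, *Tnni1*, *Tnnc1*, *Tpm3* and *Myoz2*) summed to 54.4 FPKM there, to 722 and 1051 FPKM in the other two WT libraries and to 391, 1246 and 2073 FPKM in KO replicates 1, 7 and 8. All 8 markers were lowest in WT replicate 8 and highest in KO replicate 8, and the sum covered a 38.1-fold range over the 6 mice. The 10 fast fibre markers, of which *Myh4* and *Tnnt3* are listed at 0 in every library, summed to 47184 to 64228 FPKM in WT and 47741 to 64953 FPKM in KO muscle, a range of 1.38-fold. The myosins in this sum varied more, *Myh1* by 4.53-fold. *Myh2* had 178, 179 and 274 FPKM (WT 1, 7 and 8) beside 304, 419 and 329 FPKM (KO 1, 7 and 8). Of the 8 fast markers tested, 5 were higher and 3 lower in KO muscle. For 1 of them, *Myh2*, the genotypes did not overlap, and 0 were called.

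Of the 10 members, 9 were tested and 0 differed between the genotypes at an adjusted p under 0.05 (limma, Benjamini-Hochberg adjustment over the 12334 genes tested). That threshold called 0.324% of all genes tested, 0.251% as higher and 0.073% as lower in KO muscle. At an unadjusted p under 0.05 the counts were 0 of the 9 members and 26.2% of all genes. The libraries of the genotypes overlapped for each of the 9 members, whereas 34.5% of all genes tested had no overlap. Of the 9 members, 3 had a higher and 6 a lower mean log2 value in the KO mice, with a median log2 fold change of -0.14 beside 0.01 over all genes. With each library left out in turn, 0 members were called in each of the 6 fits.

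**Figure D1:**
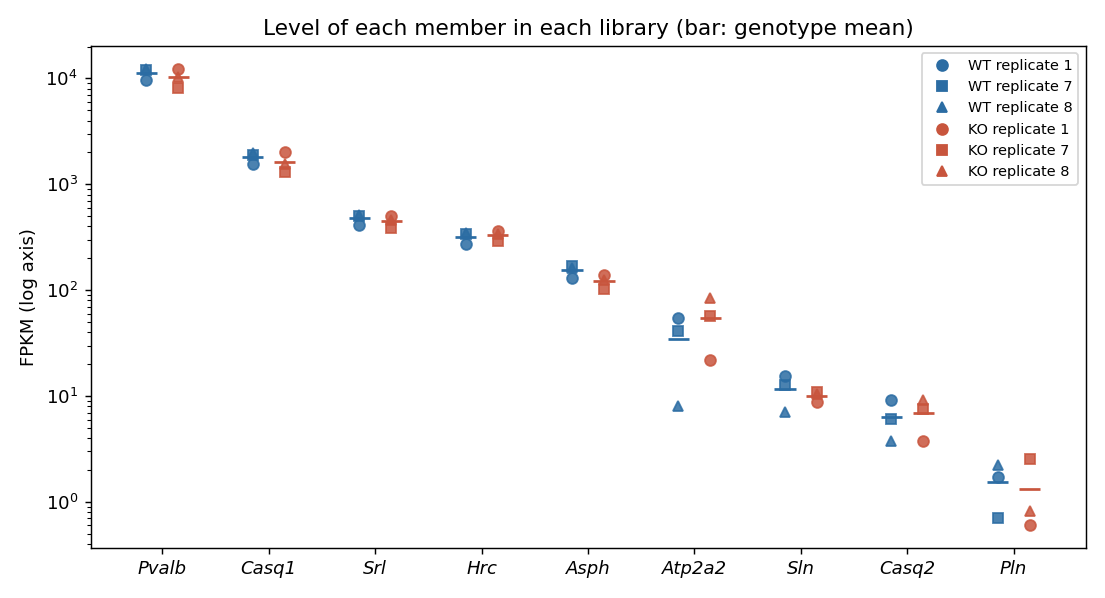
FPKM of the 9 members above 0 in each library (log axis), with WT in blue and KO in red, a symbol for each replicate number and a bar at each genotype mean. The genotypes overlap for each gene, and *Atp2a2* has the widest spread, from 8.08 to 85.2 FPKM. *Atp2a1*, listed at 0 in each library, is not drawn.

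The pumps could be read for one gene alone. *Atp2a1* (ENSMUSG00000030730, chromosome 7, 126445858 to 126463108, GRCm38) is listed at 0 FPKM in each of the 6 libraries, as are the fast fibre genes *Myh4* and *Tnnt3*. An exact 0 in such a table can be a failed estimate, so it was not read as absence, and no fold change was computed. Its annotated transcripts share no window of 50 bases with those of *Atp2a2*, and 0.115% of their windows with *Atp2a3*, another SERCA gene.

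*Atp2a2* (ENSMUSG00000029467, chromosome 5, 122453513 to 122502225) had values of 55.1, 41.6 and 8.08 FPKM (WT 1, 7 and 8) beside 22.0, 56.7 and 85.2 FPKM (KO 1, 7 and 8). WT replicate 8 was the lowest and KO replicate 8 the highest library, and the other four interleaved between the genotypes. The WT mean was 34.9 ± 24.2 FPKM and the KO mean 54.6 ± 31.6 FPKM (SD, n = 3 each). The fitted difference was 1.78-fold (log2 fold change 0.84, 95% interval -0.95 to 2.62, limma adjusted p = 0.505). WT replicate 8 decided its size, since the log2 fold change without it was -0.015. Of the transcript windows, 3.31% were shared with *Gm30970*.

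The 6 libraries stood in the same order for *Atp2a2* as for the summed slow fibre markers, in all 15 pairs of libraries. *Atp2a2* amounted to 4.11% to 5.76% of that sum in 5 libraries and to 14.8% in WT replicate 8, where the sum was lowest. The standard deviation of its log2 value over the 6 libraries, 1.22, was larger than that of 97.3% of the genes tested, and that of its log2 ratio to the sum was 0.67. The slow markers were each higher on average in the KO mice, with a median log2 fold change of 1.91. That median includes WT replicate 8, the lowest library for all 8, and is not given without it. For *Tpm3*, KO replicate 1 (65.6 FPKM) lay below WT replicates 1 and 7 (191 and 128 FPKM). Of the 8, 0 were called and none was free of overlap, beside 0.324% called and 34.5% without overlap among all genes tested. The part of the slow markers in the *Atp2a2* difference between the genotypes was not tested.

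**Figure D2:**
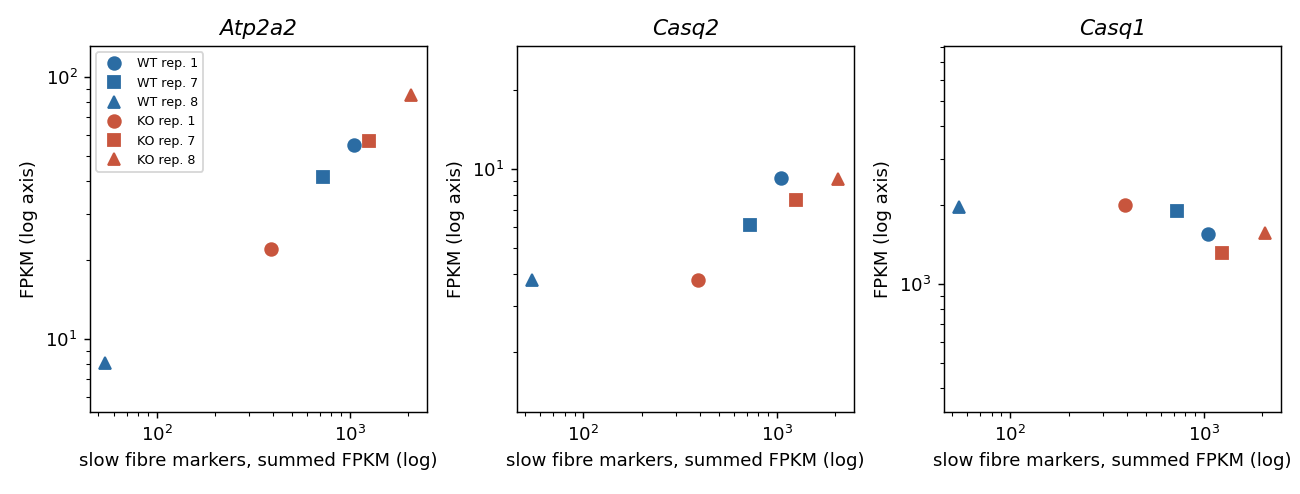
FPKM of *Atp2a2*, *Casq2* and *Casq1* against the summed FPKM of the 8 slow fibre markers in each library (both axes log, the vertical axes of equal span, WT blue, KO red). *Atp2a2* has the same order of libraries as the sum, and *Casq1* stays between 1309 and 1998 FPKM.

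Among 6078 genes averaging 5 FPKM or more and above 0 in every library, the 5 whose profile over the 6 libraries lay closest to that of *Atp2a2* were *Myoz2*, *Ldhb*, *Myom3*, *Lmod2* and *Myl3*. The root mean square difference of the gene-centred log2 values was 0.217 for *Myoz2* and 0.462 for *Myl3*, with a median of 1.15 over the 6078 genes. *Myoz2* is the calsarcin and *Myl3* the essential light chain of slow fibres, and *Ldhb* encodes the heart subunit of lactate dehydrogenase. *Myoz2* had 101, 60.8 and 14.9 FPKM (WT 1, 7 and 8) beside 43.7, 138 and 149.5 FPKM (KO 1, 7 and 8), so WT replicate 8 was the lowest and KO replicate 8 the highest here as well.

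Of the regulators of the pump, *Sln* in WT muscle was above 71.3% of the genes tested and *Pln* above 22.4%. *Sln* (ENSMUSG00000042045, chromosome 9, 53850164 to 53854560), which encodes sarcolipin, had values of 15.3, 12.7 and 7.11 FPKM (WT 1, 7 and 8) beside 8.84, 11.0 and 10.5 FPKM (KO 1, 7 and 8). The KO libraries lay inside the range of the WT libraries. The log2 fold change was -0.14 (95% interval -0.77 to 0.49, limma adjusted p = 0.762), and without WT replicate 1 it was 0.086.

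*Pln* (ENSMUSG00000038583, chromosome 10, 53337667 to 53345987), which encodes phospholamban, was the lowest member above 0. It had values of 1.71, 0.708 and 2.21 FPKM (WT 1, 7 and 8) beside 0.608, 2.56 and 0.818 FPKM (KO 1, 7 and 8). Both the lowest and the highest library were KO libraries. By the estimated depth and the mean annotated transcript length, these values rest on about 12.1 to 66.2 fragments per library, and *Pln* lies within the span of *Cep85l* on the opposite strand. Its log2 fold change was -0.32 (95% interval -1.66 to 1.01, limma adjusted p = 0.745). It was -0.0054 after each library was corrected for GC content.

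The libraries stood in the order of the slow fibre sum in 9 of 15 pairs for *Pln* and in 10 of 15 pairs for *Sln*. In WT replicate 8, the library with the lowest slow fibre markers, *Pln* had the highest of the 3 WT values. The 5 profiles closest to that of *Pln* (*Maob*, *Cisd3*, *Aldh1a1*, *S100a10* and *Dynll1*) lay at root mean square differences of 0.508 to 0.540, against a median of 0.815 over the same 6078 genes, farther than the neighbours of *Atp2a2*. Of 4 other micropeptides that act on the pump, 1 was matched in the table, myoregulin (*Mrln*) of skeletal muscle fibres. It had values of 178, 210 and 242 FPKM (WT 1, 7 and 8) beside 203, 146 and 181 FPKM (KO 1, 7 and 8), with a log2 fold change of -0.25 (limma adjusted p = 0.362). In each library its FPKM was above those of *Sln* and *Pln*.

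The stores of the sarcoplasmic reticulum were the 2 calsequestrins. *Casq1* (ENSMUSG00000007122, chromosome 1, 172209894 to 172219868), the main isoform of fast fibres, had values of 1553, 1903 and 1963 FPKM (WT 1, 7 and 8) beside 1998, 1309 and 1557 FPKM (KO 1, 7 and 8). KO replicate 1 was the highest and KO replicate 7 the lowest of the 6 libraries. KO and WT differed by -0.17 on the log2 scale (95% interval -0.59 to 0.25, limma adjusted p = 0.571).

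*Casq2* (ENSMUSG00000027861, chromosome 3, 102086415 to 102146514), the isoform of slow fibres and heart, had values of 9.26, 6.10 and 3.78 FPKM (WT 1, 7 and 8) beside 3.77, 7.61 and 9.198 FPKM (KO 1, 7 and 8). Each genotype held a library near 3.8 and a library near 9.2 FPKM. The log2 fold change was 0.10 (95% interval -0.84 to 1.04, limma adjusted p = 0.895), and it was -0.22 without WT replicate 8. The order of the libraries followed that of the slow fibre sum in 12 of 15 pairs for *Casq2* and in 3 of 15 pairs for *Casq1*.

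The sequences before the start sites of the calsequestrin genes and of *Pvalb* are shown because *Casq1* and *Pvalb* moved together across the libraries while *Casq2* did not. *Srl* had the same order of libraries as *Pvalb*, and a part of these sequences in the levels was not tested. They are 250 bases on the strand of the gene, 5′ to 3′, from RefSeq on GRCm38.p6, with E-boxes (CANNTG, the motif bound by the MyoD family) in capitals. *Casq1* is chr1:172219896-172220145 on the minus strand, *Pvalb* (the upstream one of its RefSeq starts) chr15:78206401-78206650 on the minus strand and *Casq2* chr3:102086165-102086414 on the plus strand.
Casq1: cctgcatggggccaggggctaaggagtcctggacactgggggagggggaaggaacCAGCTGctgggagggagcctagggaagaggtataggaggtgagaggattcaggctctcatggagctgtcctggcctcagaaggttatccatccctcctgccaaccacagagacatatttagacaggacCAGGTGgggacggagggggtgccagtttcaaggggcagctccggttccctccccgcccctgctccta
Pvalb: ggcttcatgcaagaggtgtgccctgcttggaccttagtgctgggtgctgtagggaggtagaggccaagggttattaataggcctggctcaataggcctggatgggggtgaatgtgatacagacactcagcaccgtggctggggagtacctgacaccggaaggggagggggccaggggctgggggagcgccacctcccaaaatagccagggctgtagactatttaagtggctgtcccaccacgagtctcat
Casq2: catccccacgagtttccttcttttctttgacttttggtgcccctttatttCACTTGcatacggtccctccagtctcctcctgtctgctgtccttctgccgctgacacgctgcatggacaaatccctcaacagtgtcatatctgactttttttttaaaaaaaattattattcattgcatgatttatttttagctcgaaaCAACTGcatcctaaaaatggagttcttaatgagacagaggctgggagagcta
*Casq1* and *Casq2* each held 2 E-boxes and the window of *Pvalb* held 0, where 66.2% of 32851 promoters of this length held at least 1. Both the E-box and the MEF2 motif read the same on either strand. A MEF2 motif was found once in *Casq2* and once in *Pvalb* and not in *Casq1*, and 2.92% of all promoters held one. The window of the downstream RefSeq start of *Pvalb* (chr15:78204238-78204487), not printed, held 1 E-box and 0 MEF2 motifs. The GC content of the windows was 61.6% for *Casq1*, 58.4% for *Pvalb* and 41.6% for *Casq2*. Windows were matched for 6 of the 10 members, and *Atp2a2*, *Sln*, *Srl* and *Asph* were not among them.

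*Pvalb* (ENSMUSG00000005716, chromosome 15, 78191114 to 78206400), parvalbumin, had the highest level of the members and was above 99.96% of the genes tested in WT muscle. It had values of 9656, 12027 and 12338 FPKM (WT 1, 7 and 8) beside 12306, 8201 and 10354 FPKM (KO 1, 7 and 8). KO replicate 7 was the lowest and the other libraries overlapped between the genotypes. KO minus WT was -0.15 on the log2 scale (95% interval -0.59 to 0.29, limma adjusted p = 0.633). Without KO replicate 7 it was 0.0019.

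Measured against each other within a library, *Pvalb* and *Casq1* stayed close to one ratio. The log2 ratio of their FPKM + 0.1 was 2.64, 2.66 and 2.65 in WT replicates 1, 7 and 8 and 2.62, 2.65 and 2.73 in KO replicates 1, 7 and 8. The difference between the genotypes was 0.019 (exact permutation test, two-sided, p = 0.9, adjusted over 4 ratios p = 1). With 3 against 3 libraries no p under 0.1 is possible. After correction for GC content it was 0.148 (exact permutation test, p = 0.1).

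The other 3 ratios varied by far more within a genotype. That of *Casq2* to *Casq1* was -8.21 ± 0.806 (SD, n = 3) in WT and -7.94 ± 0.931 (SD, n = 3) in KO muscle on the log2 scale (exact permutation test, two-sided, p = 1). The ratio of *Sln* to *Atp2a2* was -1.24 ± 0.921 (SD, n = 3) in WT and -2.22 ± 0.857 (SD, n = 3) in KO muscle (exact permutation test, two-sided, p = 0.3), and KO replicate 1 lay above WT replicates 1 and 7. The difference of -0.98 was -0.45 without WT replicate 8. The ratio of *Pln* to *Atp2a2* was -4.15 ± 2.05 (SD, n = 3) in WT and -5.31 ± 1.10 (SD, n = 3) in KO muscle (exact permutation test, two-sided, p = 0.5). Its difference of -1.16 was 0.0026 without WT replicate 8. The adjusted p over the 4 ratios was 1 for each.

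**Figure D3:**
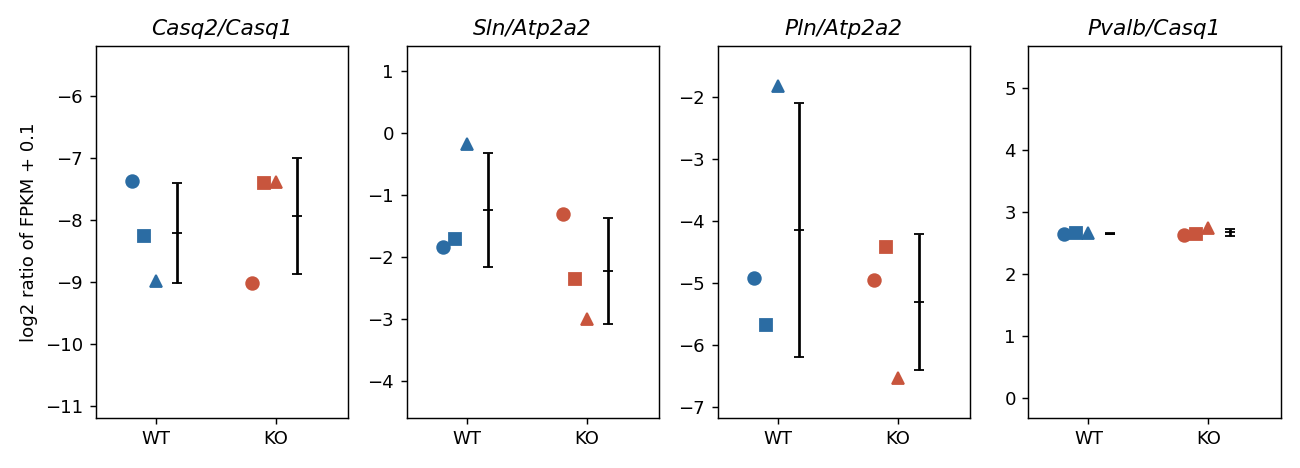
Log2 ratio of FPKM + 0.1 of 4 pairs of members in each library, on vertical axes of equal span (WT blue, KO red; circle, square and triangle for replicates 1, 7 and 8; black bars give the mean and SD of 3 libraries). *Pvalb/Casq1* lies between 2.62 and 2.73, and WT replicate 8 is the highest library for both ratios to *Atp2a2*.

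*Srl* (ENSMUSG00000022519, chromosome 16, 4480216 to 4541816) and *Hrc* (ENSMUSG00000038239, chromosome 7, 45335290 to 45338974) encode sarcalumenin and the histidine-rich calcium-binding protein, both of the sarcoplasmic reticulum. *Srl* had values of 416, 497 and 517 FPKM (WT 1, 7 and 8) beside 504.6, 387 and 458 FPKM (KO 1, 7 and 8). Its log2 fold change was -0.086 (95% interval -0.42 to 0.24, limma adjusted p = 0.723). *Hrc* had values of 273, 342 and 344 FPKM (WT 1, 7 and 8) beside 363, 294 and 343 FPKM (KO 1, 7 and 8). Its log2 fold change was 0.062 (95% interval -0.26 to 0.38, limma adjusted p = 0.804), and -0.20 after correction for GC content. The genotypes overlapped for both genes, with KO replicate 7 lowest for *Srl* and WT replicate 1 lowest for *Hrc*. They had a smaller spread over the 6 libraries than most, with a log2 standard deviation of 0.168 for *Srl* and 0.160 for *Hrc* beside a median of 0.268 over the genes tested. That median was not matched for level. In WT muscle *Srl* was above 99.2% and *Hrc* above 98.7% of the genes tested.

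*Asph* (ENSMUSG00000028207, chromosome 4, 9448069 to 9669344) had the lowest unadjusted p of the members. The gene has 20 annotated transcripts and encodes junctin, which anchors calsequestrin at the release channel, and junctate as well as aspartyl hydroxylase, which a single FPKM per gene does not tell apart. It had values of 131, 171 and 162 FPKM (WT 1, 7 and 8) beside 139, 103 and 126 FPKM (KO 1, 7 and 8). KO replicates 7 and 8 lay below each WT library, and KO replicate 1 lay above WT replicate 1. The WT mean was 154 ± 20.95 FPKM and the KO mean 123 ± 17.96 FPKM (SD, n = 3 each), and the log2 fold change was -0.33 (95% interval -0.69 to 0.025, unadjusted p = 0.064, limma adjusted p = 0.214). The exact permutation p was 0.2. Its transcripts had a GC content of 44.7%, and the correction for GC content moved the log2 fold change to -0.093 (limma adjusted p = 0.853). With weights on the libraries it was -0.43 and passed the threshold (limma adjusted p = 0.0223), in a fit that called 3147 genes in all.

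**Figure D4:**
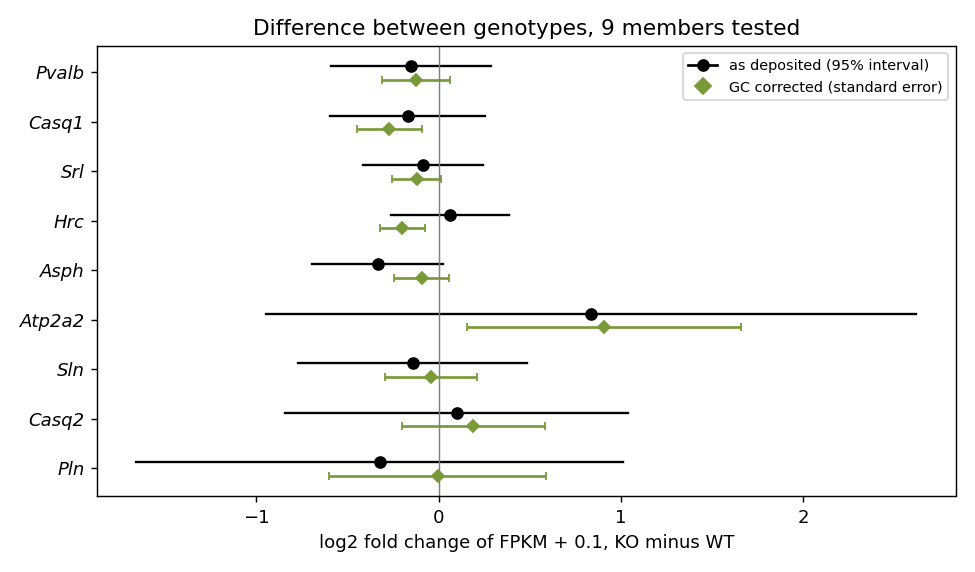
Log2 fold change of FPKM + 0.1, KO minus WT, for the 9 members tested, as deposited (black, 95% interval) and after correction of each library for GC content (green, standard error). Each black interval includes 0, that of *Asph* by the least (upper bound 0.025), and those of *Atp2a2* and *Pln* are the widest.

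Ordered by mean FPKM in WT muscle, the members ran *Pvalb*, *Casq1*, *Srl*, *Hrc*, *Asph*, *Atp2a2*, *Sln*, *Casq2* and *Pln*, from 11340 to 1.54 FPKM. The order of each pair of neighbours was the same in all 6 libraries. Among neighbours in this order, the ranges of the libraries overlapped between *Atp2a2* and *Sln* and between *Sln* and *Casq2*, and not for the other pairs of neighbours. *Pvalb* was 6.28 times *Casq1* in WT and 6.35 times in KO muscle. *Asph* was 4.43 times *Atp2a2* in WT and 2.25 times in KO muscle.

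Over the libraries the 5 highest members differed by 1.33-fold to 1.65-fold between the lowest and the highest mouse, close to the 1.38-fold of the summed fast fibre markers. *Sln*, *Casq2*, *Pln* and *Atp2a2* differed by 2.16-fold, 2.45-fold, 4.21-fold and 10.5-fold. KO replicate 7 was the lowest library for *Pvalb*, *Casq1*, *Srl* and *Asph* and the second lowest for *Hrc* and the fast fibre sum.

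**Figure D5:**
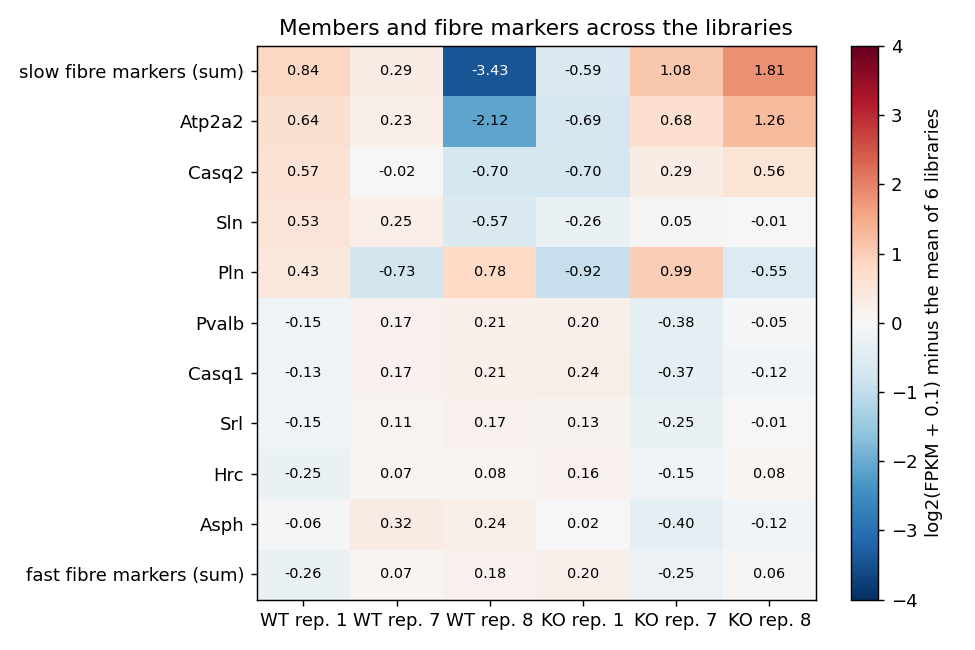
Log2(FPKM + 0.1) of the members and of the summed slow and fast fibre markers in each library, minus the mean of the 6 libraries of that row (red above, blue below the mean). *Atp2a2* has its lowest value in WT replicate 8 and its highest in KO replicate 8, as the slow fibre sum has.

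The other calcium-handling genes were looked at through 6 lists with 60 genes, of which 57 were in the table and 49 were tested. Of these 49 genes, 0 passed the threshold and 13 had an unadjusted p under 0.05, while KO muscle had the higher mean log2 value for 27 and the lower for 22. Their median log2 fold change was 0.024. The genotypes had no overlap for 16 of the 49 genes, 10 of them with KO above WT, beside 18.3% of all genes tested, and 6 with KO below WT, beside 16.2% of all genes tested.

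In the list for calcium release from the sarcoplasmic reticulum, 11 of 16 tested genes were higher and 5 lower. Without overlap, 4 lay above and 2 below WT, beside 18.3% and 16.2% of all genes tested. One of those below, *Cacna2d1*, an auxiliary subunit of the calcium channel, was at 85.1 to 88.2 FPKM in WT and 44.3 to 68.2 FPKM in KO muscle. Its log2 fold change was -0.62 (limma adjusted p = 0.0869), and -0.32 after correction for GC content. Of 8 tested genes for other pumps and exchangers 5 were higher and 3 lower. *Atp2a3* was at 0.852 to 1.13 FPKM in WT and 1.61 to 2.73 FPKM in KO muscle. The log2 fold change was 0.90 (limma adjusted p = 0.0936), and 0.43 after the correction. It was the SERCA gene whose libraries did not overlap, at a small share of the FPKM of *Atp2a2*.

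Of the other calcium-binding proteins, 4 of 14 were higher and 10 lower. *Rcn3*, a reticulocalbin of the secretory pathway, was at 2.08 to 2.98 FPKM in WT and 4.48 to 8.06 FPKM in KO muscle. It had a log2 fold change of 1.21 (limma adjusted p = 0.0700), which was 0.57 after the correction. *Calm2*, one of the calmodulin genes, was at 209 to 235 FPKM in WT and 118 to 179 FPKM in KO muscle. The log2 fold change was -0.57 (limma adjusted p = 0.0962), and -0.30 after the correction. In mitochondrial calcium uptake, 3 of 5 genes were higher and 2 lower, and *Micu3*, a regulator of the uniporter, was at 11.2 to 12.2 FPKM in WT and 5.29 to 9.26 FPKM in KO muscle. It had a log2 fold change of -0.68 (limma adjusted p = 0.102), which was -0.32 after the correction. In store-operated entry, 4 of 5 were higher and 1 lower, and *Orai1*, the channel of that entry, was at 3.85 to 6.28 FPKM in WT and 9.70 to 10.3 FPKM in KO muscle. Its log2 fold change of 1.02 (limma adjusted p = 0.0667) was 0.37 after the correction.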

How the data were processed

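Total RNA of GAS muscle, 1 library per mouse, went into a stranded mRNA kit. The deposited FPKM were made by the authors with TopHat and Cufflinks on GRCm38. Tool versions and the annotation release are not given in the sources used here. The table holds no counts, so the depth was estimated from the steps of whole fragments in low values of genes with 1 transcript of 1500 to 6000 bases. Within 0.15 of a fragment, 90.5% to 94.7% of these values were whole. No pair of libraries shared more than 1 of 14983 values above 0.

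Genes averaging 0.5 FPKM or more were tested as log2(FPKM + 0.1) with limma 3.58.1 in R 4.3.3, with a variance trend and Benjamini-Hochberg adjustment. Fold changes are on that scale. On simulated data for this comparison with 12334 genes, 88% of 200 genes changed by 2 on the log2 scale were recovered with 9 false calls. The log2 fold changes of the members were smaller, from -0.33 to 0.84, and recovery at that size is not given. Ratios were tested by exact permutation over samples. GC content was corrected by a loess curve of span 0.3 per library. It and the coordinates came from GENCODE vM21 on GRCm38, which held 32935 of the 37979 gene identifiers.

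The 10 members, the lists of 60 pathway genes and the fibre and cell type markers were chosen with earlier results of these data known. Named genes are the members, *Kcnab2*, the fibre markers, the 3 most positive and 3 most negative fold changes without overlap over the pathway lists, and the 5 closest profiles of the 2 members with the largest spread. *Mrln* was added after its values were seen. Alternatives covered the pseudocount, the filter, scaling, variance model, library weights, replicate block, GC content, length, shared symbols, values at 0 and each library left out. Python 3.11.15 and matplotlib 3.10.9 were used for the figures.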

Additional observations from a re-analysis of the deposited data

How the results depend on the processing

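No member passed the threshold in 21 of the 22 alternatives. With array weights 1 member (*Asph*) and 14 pathway genes did. The count of all genes called, 40, was 3147 with array weights, 20 without a filter, 19 with upper quartile scaling and with no variance trend, 17 with libraries scaled to one common sum, 11 with a pseudocount of 1, 13 after the length correction, 14 after the GC correction and 1 without genes listed at 0. With each library left out it was 38 without WT replicate 8 and 11 to 16 without one of the other libraries. The split of 31 higher and 9 lower genes was 11 and 8 with upper quartile scaling and 10 and 7 with the common sum. The sample titles do not say whether the replicate numbers pair the mice. Same-numbered libraries correlated at -0.0797 to 0.0343 and the others at -0.0657 to 0.086. Such values near 0 cannot decide whether the mice were paired. With the replicate numbers as a block 13 genes were called, 12 with the GC correction as well, and 0 members.

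Several log2 fold changes turned sign, among them the largest of the members, that of *Atp2a2* (0.84). That of *Hrc* was -0.20 after the GC correction, with and without the block, and -0.031 after the length correction, and that of *Pln* was 0.13 with array weights. The causes were not tested. The sign also turned without WT replicate 8 (*Atp2a2*, *Casq2*, *Casq2/Casq1*, *Pln/Atp2a2*), WT replicate 1 (*Sln*, *Hrc*), KO replicate 1 (*Pln*, *Hrc*), KO replicate 7 (*Casq2*, *Pvalb*, *Srl*) or KO replicate 8 (*Casq2*, *Casq2/Casq1*, *Pvalb/Casq1*). With each library left out, the ranges were -0.015 to 1.39 for *Atp2a2*, -0.46 to 0.086 for *Sln*, -0.90 to 0.057 for *Pln*, -0.33 to -0.027 for *Casq1*, -0.22 to 0.48 for *Casq2*, -0.29 to 0.0019 for *Pvalb*, -0.18 to 0.018 for *Srl*, -0.048 to 0.15 for *Hrc* and -0.45 to -0.22 for *Asph*. The differences of the log2 ratios ranged from -0.12 to 0.81 for *Casq2/Casq1*, -1.93 to 0.0026 for *Pln/Atp2a2*, -1.44 to -0.45 for *Sln/Atp2a2* and -0.014 to 0.041 for *Pvalb/Casq1*. Of the members tested, depth limits *Pln* most, at an estimated 12.1 to 66.2 fragments per library.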

Other observations

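Markers of other cell types in the muscle gave the following values. The 4 adipocyte markers were higher on average in the KO mice, with a median log2 fold change of 1.95, and their sum was 224 to 424 FPKM in WT and 273 to 523 FPKM in KO muscle. *Plin1* and *Cidec*, which coat lipid droplets, lay above WT in each KO library, as did 18.3% of all genes tested. KO replicate 7 was the highest library for all 4 adipocyte markers. *Plin1* had 7.37 FPKM there, beside 1.14 and 1.37 FPKM in KO replicates 1 and 8. Of the smooth muscle markers, the 3 tested genes *Acta2*, *Myh11* and *Tagln* also lay above WT in each KO library. With *Cnn1*, which was below the filter, the 4 markers summed to 19.7 to 24.6 FPKM in WT and 30.4 to 50.8 FPKM in KO muscle. The sums of the cardiac (59.6 to 117 FPKM in WT, 63.0 to 149.6 FPKM in KO), endothelial (34.8 to 37.0 and 32.7 to 43.0 FPKM), fibroblast (369 to 527 and 351 to 445 FPKM), macrophage (2.88 to 9.15 and 6.64 to 12.9 FPKM), Schwann cell (27.2 to 102 and 31.1 to 131 FPKM) and tendon markers (31.2 to 55.0 and 40.7 to 93.0 FPKM) overlapped. *Dcn*, at 318 to 485 FPKM, made up most of the fibroblast sum. *Col1a1* had 9.80, 5.08 and 4.07 FPKM (WT 1, 7 and 8) beside 25.9, 19.7 and 6.45 FPKM (KO 1, 7 and 8). Its log2 fold change was 1.33 (limma adjusted p = 0.173), and 0.81 after correction for GC content. Of the 4 fibroblast markers, 2 were higher and 2 lower in KO muscle. Sums of the satellite cell markers were 5.91 to 7.05 FPKM in WT and 8.42 to 9.31 FPKM in KO muscle, without overlap. Of the single genes, *Cdh15* and *Myf5* lay above WT in each KO library, as did 18.3% of all genes tested, while *Chodl* and *Pax7* overlapped. *Myf5* and *Pax7* were below the filter and were not tested. *Pax7* had 0.340, 0.396 and 0.529 FPKM (WT 1, 7 and 8) beside 0.446, 0.362 and 0.446 FPKM (KO 1, 7 and 8). The log2 fold change of *Cdh15* was 0.71, and 0.093 after correction for GC content. Of the markers that were tested, 0 were called.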
